A study of Mus musculus with 8 samples.

Results

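Primary mouse podocytes kept in RPMI were compared with primary mouse parietal epithelial cells (PECs) kept in the same medium, in 4 of the 8 arrays of the series and over all 22237 genes measured. The members were the arrays whose labels give RPMI: 2 arrays of podocytes and 2 arrays of PECs. Each array held RNA of an independent culture, named in the deposited table as Pod2 and Pod3 for podocytes and as PEC2 and PEC3 for PECs. Podocytes had been tagged in female Pod-rtTA/LC1/R26R mice and PECs in female PEC-rtTA/LC1/R26R mice. In both lines doxycycline had switched on a Cre that permanently activates the beta-galactosidase reporter, and the rtTA transgene sets the cell type: the podocyte line marks podocytes, while the PEC line uses a rabbit podocalyxin promoter and marks parietal cells in a mosaic fashion. The labels give all groups the same mixed genetic background with a large Sv129 share, and they give no age. Podocytes grew out of decapsulated glomeruli and PECs out of capsulated ones, all first in EGM-MV. They were sorted on a fluorescent beta-galactosidase product and passaged repeatedly, and fetal calf serum was present in both media at a lower share in RPMI. Mouse line and glomerular preparation changed together with the cell type and cannot be told apart from it, and no uncultured cells were measured.

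Podocytes are the epithelial cells that wrap the glomerular capillaries with interlocking foot processes and complete the filtration barrier. In the body they are generally held to be post-mitotic, but the study found that its tagged podocytes divided repeatedly in culture. PECs are the flat epithelial cells that line Bowman's capsule, retain the ability to divide, and take part in crescents and glomerular scars. RPMI is a basal medium, whereas EGM-MV is enriched with growth factors for microvascular endothelium. The comparison asks what sets the cultured cell types apart when the added growth factors are absent. The deposited table identifies genes by Ensembl ID alone, and 0 of its IDs were matched to a gene symbol here. The labelled cell types were therefore not checked against their marker genes, and the genes below carry an ID and no role.

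Values are log2 intensities in arbitrary units, with 1 unit standing for 2-fold. The median of the 4 arrays lay between 6.21 and 6.32 and their standard deviation over genes between 1.94 and 2.04, with Pod2 at the low end for the median and at the high end for the spread. The podocyte cultures differed by at least 2-fold from each other at 5 genes, and the PEC cultures at 211 genes. The standard deviation over genes of the difference between cultures was 0.18 for podocytes and 0.26 for PECs. Any podocyte culture set against any PEC culture gave at least 2-fold differences at 1381 to 1575 genes, with a standard deviation of 0.53 to 0.58. Of the variance among the 4 arrays, 84.9% lay between the cell types, 4.99% between the podocyte cultures and 10.1% between the PEC cultures. On the first principal component, with 85.2% of that variance, Pod2 lay at 40.05 and Pod3 at 39.2, against -43.4 for PEC2 and -35.8 for PEC3.

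Podocytes in RPMI differed from PECs in RPMI at 6312 genes, or 28.4% of those tested, by limma at an adjusted p below 0.05. Of these, 3457 genes were higher in podocytes (15.5% of all genes) and 2855 were lower (12.8%). Most of the changes were small. The median absolute difference of the called genes was 0.61 (log2), and 78.6% of them differed by less than 2-fold. A bound of 2-fold was reached by 759 rises and 589 falls in podocytes. A bound of 4-fold was reached by 121 rises and 118 falls, 8-fold by 25 rises and 27 falls, and 16-fold by 11 rises and 6 falls. The rises and falls were thus close in number at 4-fold and 8-fold, and the largest single difference was a fall in podocytes of 6.06 (log2).

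**Figure D1:**
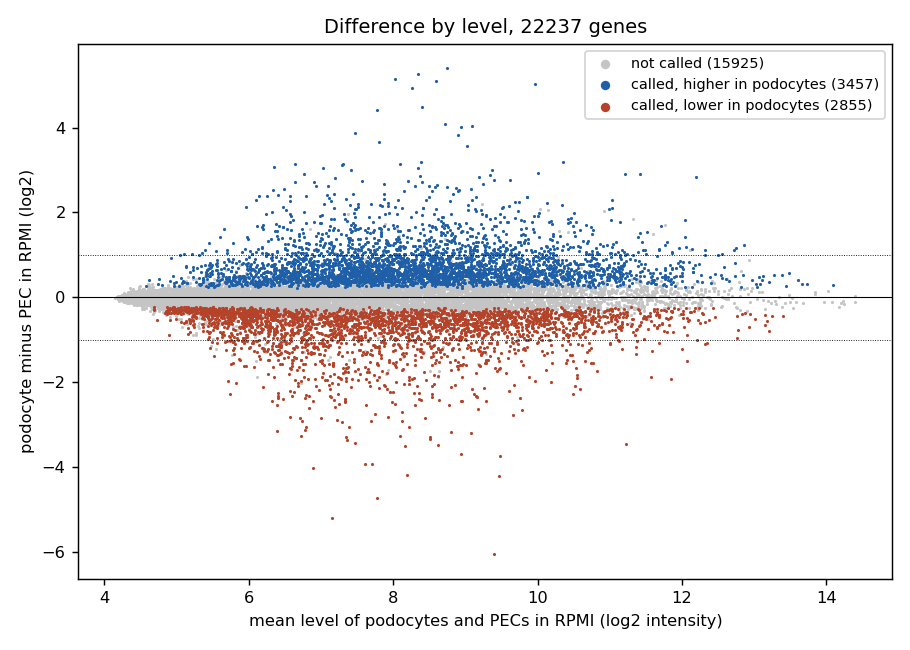
Each point is 1 of 22237 genes, with its mean level in podocytes and PECs in RPMI (log2 intensity) on the x axis and the podocyte minus PEC difference in RPMI (log2) on the y axis. Blue points are the 3457 genes called higher in podocytes, red points the 2855 called lower and grey points the 15925 not called, and the dotted lines mark 2-fold. The differences reached 5.40 upwards and -6.06 downwards.

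Calls were concentrated among brighter genes. Of the 12931 genes with a mean of at least 6 (log2) in podocytes or in PECs, 45.1% were called, against 5.16% of the 9306 genes below 6 in both. A level of 6, a round number close to the median of the arrays, was used as the bound for dim genes and is called background below, since no measured background was used here. By the mean level of both cell types, the share called was 1.25% below 5 and 30.5% between 6 and 7, and it lay between 48.1% and 53.9% in all bands of 7 and over. In each of those bands more genes were higher than lower in podocytes, with 32.6% higher and 20.1% lower between 8 and 9. Between 5 and 6 the order was turned, with 2.86% higher and 7.50% lower.

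As deposited, most dim genes were slightly lower in podocytes. Among the 9858 genes whose mean over both cell types lay below 6, 76% were lower in podocytes, and the median difference was -0.08. Among the 12379 brighter genes 48.9% were lower, with a median of 0.01. The podocyte arrays were unequal in this shift. Over all genes, the median difference from PEC2 and PEC3 was -0.077 and -0.081 for Pod2, and -0.017 and -0.023 for Pod3. The dim genes alone were not split by array. The arrays of podocytes lay wholly above those of PECs at 5782 genes (26% of all genes) and wholly below them at 8165 (36.7%), and 3971 of those 8165 had a mean below 6. The balance of non-overlapping genes depended on the scaling. It was 6721 above and 6851 below after repeated quantile normalization, 7661 above and 5571 below after centring the arrays on their medians, and 5007 above and 4515 below without dim genes. Of the called genes 54.8% were higher in podocytes as deposited, and 65.9% after that centring, which moved the median difference of all genes to 0.02, against -0.06 as deposited. The shift of the dim genes alone was not tested under that scaling.

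**Figure D2:**
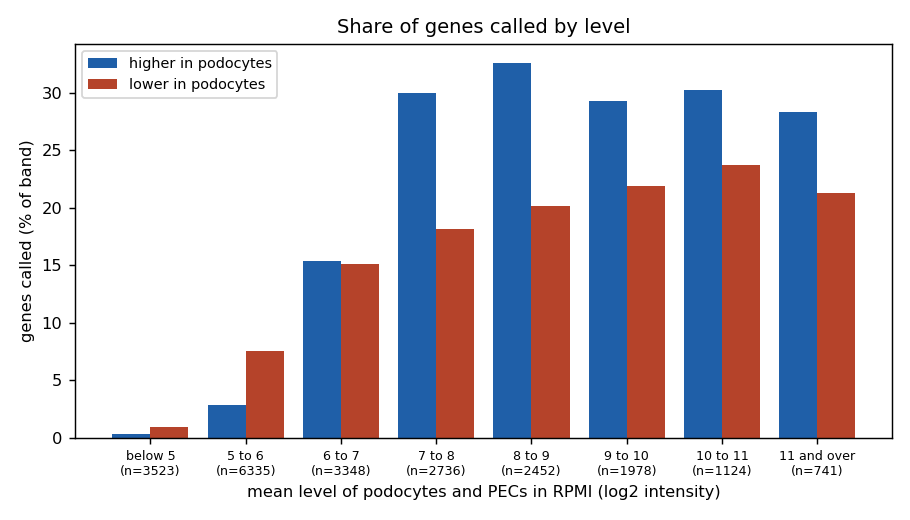
Bars give the share of genes (%) called higher (blue) and lower (red) in podocytes than in PECs in RPMI, in bands of the mean level of both cell types (log2 intensity), with the number of genes in each band under it. Higher calls outnumber lower ones from 7 upwards, while between 5 and 6 they make up 2.86% and lower ones 7.50%.

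Few genes went from background in one cell type to a clear signal in the other. A mean of at least 8 in podocytes and below 6 in PECs was found at 20 genes, and the opposite at 25. These bounds set the genes at least 4-fold apart, so their calls are not counted here. The same pattern in EGM-MV was met by 11 of the 20 and by 8 of the 25. With a bound of 6 for both, 349 genes were at or above it in podocytes only and 906 in PECs only. Of these, 239 of the 349 and 396 of the 906 were called, against 28.4% of all genes. The bound lies among the dim genes, most of which were slightly lower in podocytes as deposited. By array, 11811 genes lay at or above it in Pod2 and 12339 in Pod3, against 12527 in PEC2 and 12612 in PEC3. The brightest genes were largely common to both. Of the 500 brightest genes of podocytes, 379 were also among the 500 brightest of PECs, and of the 100 brightest 74 were shared.

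The 15 genes with the largest rises, among called genes with a level of at least 6 in podocytes and no overlap of arrays, were 3.57 to 5.40 (log2) higher in podocytes. Their podocyte means lay between 9.40 and 12.49 and their PEC means between 5.45 and 7.45, and the dimmest podocyte array exceeded the brightest PEC array by at least 3.06. The 15 largest falls, chosen in the same way, were 3.37 to 6.06 lower in podocytes. Their podocyte means lay between 4.55 and 9.49 and their PEC means between 8.90 and 12.94, with a gap between arrays of at least 2.55. The PEC cultures were farther apart than the podocyte cultures at 11 of the 15 rises and at 13 of the 15 falls. The mean of the dimmer cell type was below background for 6 of the 15 rises and 7 of the 15 falls. The limma adjusted p-values ran from 1.05e-06 to 0.000187 for the rises and from 7.77e-06 to 0.00332 for the falls.

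ENSMUSG00000022661 had the largest rise, with 11.46 in Pod2 and 11.42 in Pod3, against 6.44 in PEC2 and 5.64 in PEC3. Both podocyte cultures stood at nearly the same high level, and PECs were close to background. The difference was 5.40 ± 0.44 (log2, SE, limma adjusted p = 0.000132), or 42.2-fold by the means, of which the PEC mean was only just above background and PEC3 lay below it. In EGM-MV the podocyte arrays had 10.86 and 10.84, against 7.45 and 5.99 in PECs. There the groups again did not overlap, and the interaction test described below gave an adjusted p of 0.381.

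ENSMUSG00000023224 had 11.17 in Pod2 and 10.76 in Pod3, against 5.46 in PEC2 and 5.96 in PEC3. Both PEC cultures lay below background. The difference was 5.26 ± 0.29 (limma adjusted p = 3.53e-05), and with the PEC mean set to 6 podocytes were at least 31.3-fold higher. In EGM-MV the podocyte arrays were higher still, at 12.70 and 12.53, against 5.82 and 6.70 in PECs. The change of the difference between media was -1.10 ± 0.41 and did not pass (adjusted p = 0.244).

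ENSMUSG00000075602 had the largest fall, with 6.50 in Pod2 and 6.24 in Pod3, against 11.85 in PEC2 and 13.02 in PEC3. The PEC cultures were farther apart than the podocyte cultures, and both lay above them by at least 5.35. The gene fell by 6.06 ± 0.42 in podocytes (limma adjusted p = 6.99e-05), or 66.9-fold. In EGM-MV the podocyte arrays had 9.12 and 9.86, against 10.56 and 11.30 in PECs. The fall was thus 6.06 in RPMI and 1.44 in EGM-MV. The difference between media was -4.63 ± 0.59 (limma adjusted p of the interaction = 0.0104). That last call was lost without replicate 1 or replicate 2 of podocyte RPMI (adjusted p = 0.0602 and 0.0642), without replicate 2 of podocyte EGM-MV (adjusted p = 0.0504) and by the t-test of the methods, both after Benjamini-Hochberg adjustment (adjusted p = 0.170) and at the threshold the methods state (unadjusted p = 0.0044).

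ENSMUSG00000078597 had 4.64 in Pod2 and 4.46 in Pod3, against 9.95 in PEC2 and 9.53 in PEC3. Both podocyte cultures lay below background and both PEC cultures above it. The gene fell by 5.20 ± 0.57 in podocytes (limma adjusted p = 0.000512), and with the podocyte mean set to 6 it was at least 13.4-fold lower. In EGM-MV the podocyte arrays had 4.40 and 4.49, against 6.56 and 8.70 in PECs. The PEC cultures differed there by over 2 on the log2 scale, and the interaction did not pass (adjusted p = 0.280).

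**Figure D3:**
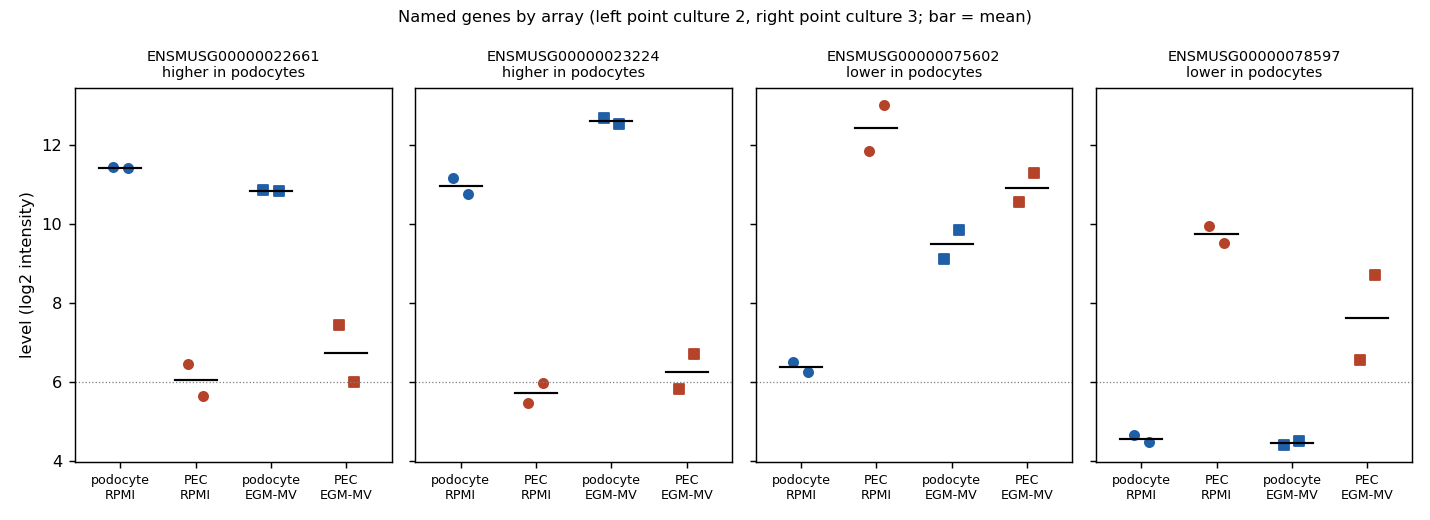
Points give the level (log2 intensity) of 4 genes in every array, by cell type and medium, with podocytes in blue, PECs in red and group means as bars, and the dotted line marks the background level of 6. In RPMI the first 2 genes lay between 10.76 and 11.46 in podocytes and at most at 6.44 in PECs, and the last 2 lay at most at 6.50 in podocytes and at least at 9.53 in PECs.

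Cell cycle genes of the G2/M list were mostly lower in podocytes than in PECs. In G2 a cell prepares for division after copying its DNA, which takes place in S phase, and in M phase it divides. G1 is the interval before S phase. The 3 lists of Ensembl IDs used here came from marker pairs for mouse cells distributed with the R package scran, and they were chosen with results of these data known. Of 78 measured G2/M genes, 54 were lower in podocytes (69.2%, against 12.8% of all genes), 5 were higher (6.41%, against 15.5%) and 19 did not pass. A mean of at least 6 in podocytes or PECs was found at 76 of the 78. Among all 12931 genes at that level, 19.3% were called lower and 25.8% higher. The median difference of the G2/M list was -0.81 (log2), or 1.76-fold, against a median of -0.06 over all genes tested. Falls of 2-fold or more were found at 38 of the 78 genes and a rise of that size at 1.

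The lower G2/M level was present in each pair of cultures. The median level of the list was 7.39 in Pod2 and 7.23 in Pod3, against 8.42 in PEC2 and 8.36 in PEC3. The median difference lay between -0.88 and -0.74 for the 4 pairs of a podocyte and a PEC culture, whereas it was 0.13 between Pod2 and Pod3 and 0.06 between PEC2 and PEC3. The arrays of podocytes lay wholly below those of PECs at 57 of the 78 genes (36.7% of all genes) and wholly above them at 10 (26% of all genes). The member with the largest fall had 8.44 and 8.12 in podocytes, against 10.95 and 11.15 in PECs, and fell by 2.77 ± 0.14 (limma adjusted p = 2.22e-05). The largest rise was 1.87 ± 0.09, with 10.37 and 10.32 in podocytes against 8.58 and 8.37 in PECs (limma adjusted p = 1.97e-05). The list was thus not uniform. RNA was taken from whole cultures, so fewer cells in G2 and M and less of these RNAs in each such cell cannot be told apart.

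The S and G1 lists had medians nearer to that of all genes. Of 62 measured S genes, 26 were lower in podocytes (41.9%, against 12.8% of all genes), 9 were higher (14.5%, against 15.5%) and 27 did not pass, with a median difference of -0.29. Their median level was 8.13 in Pod2 and 8.06 in Pod3, against 8.26 in PEC2 and 8.14 in PEC3. The lowest PEC median and the highest podocyte median were thus nearly equal. Called falls of 2-fold or more were found at 11 S genes, against 589 of all 22237 genes, and the largest S difference upwards was 0.92. Of 93 measured G1 genes, 32 were lower (34.4%, against 12.8%), 11 were higher (11.8%, against 15.5%) and 50 did not pass, with a median of -0.16. The G1 members ranged from -2.17 to 1.80. A mean of at least 6 in podocytes or PECs was found at 61 of the 62 S genes and 89 of the 93 G1 genes. Of all 12931 genes at that level, 19.3% were called lower in podocytes and 25.8% higher. By share, both lists thus held more falls and fewer rises than genes of like level. After centring the arrays on their medians, the differences had medians of -0.74 for G2/M, -0.22 for S and -0.08 for G1. The G2/M counts were then 50 lower and 6 higher, against 2050 lower and 3958 higher over all genes. Without replicate 2 of podocyte RPMI the S median was -0.18 and the G1 median -0.095, and 21 G1 genes were called lower and 7 higher.

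**Figure D4:**
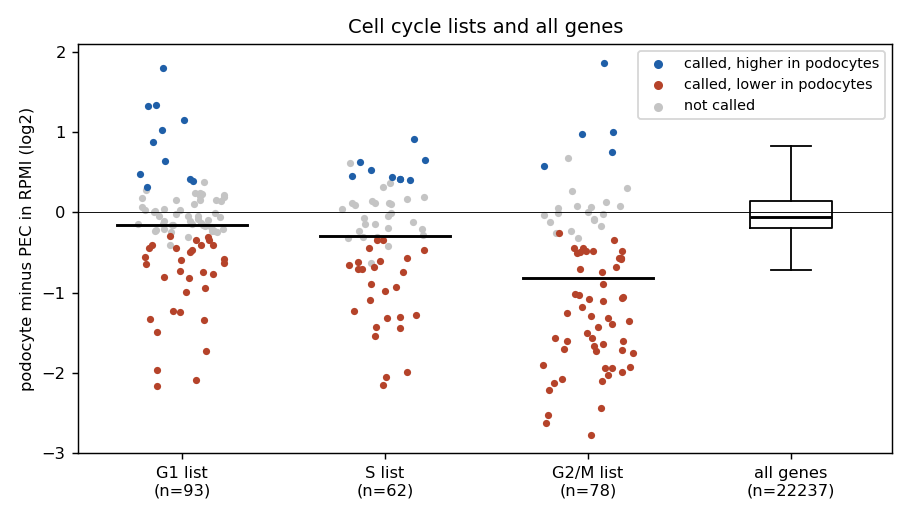
Points give the podocyte minus PEC difference in RPMI (log2) of each measured member of the G1, S and G2/M lists, coloured by its limma call, with the median of each list as a bar. The box runs from the 25th to the 75th percentile of all 22237 genes with the median as a line, and its whiskers run from the 5th to the 95th percentile. The G2/M median of -0.81 lies below the S median of -0.29, the G1 median of -0.16 and the median of all genes.

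The difference between podocytes and PECs was called as dependent on the medium at a small share of genes. The test was the interaction of cell type and medium, the difference in RPMI minus the difference in EGM-MV. It passed at 664 genes (2.99% of those tested). Its unadjusted limma p was below 0.05 at 16% of genes, so a gene that did not pass may still depend on the medium. The difference was higher in RPMI at 335 genes (1.51%) and lower in RPMI at 329 (1.48%), and 315 of the 664 changed by at least 2-fold. By direction, 276 of the 664 had differences of opposite sign in the 2 media, counted whether or not either difference was itself called. Of these, 159 were higher in podocytes in RPMI and lower in EGM-MV, and 117 showed the reverse. At 147 genes the sign was kept and the difference was larger in RPMI, and at 241 it was kept and smaller in RPMI. The medium changed podocytes more than PECs at 422 of the 664 genes. The splits by sign and by medium change were not computed over all genes. Whether the 664 differ in them from other genes is therefore not known.

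The largest differences in RPMI were found in EGM-MV too. All 15 of the largest rises were higher in podocytes in EGM-MV, by 0.92 to 6.36 (log2), and 14 of the 15 largest falls were lower there. The exception was 0.49 higher in podocytes in EGM-MV. In size, 10 of the 15 rises and 11 of the 15 falls were larger in RPMI, in which they had been chosen. The interaction passed at 6 of the rises and at 4 of the falls, and at 2.99% of all genes. These rises and falls were chosen by their difference in RPMI, which is itself a part of the interaction. An excess over all genes therefore cannot be read from these counts. The interaction ran from -1.23 to 2.91 (log2) at those 6 rises, and so in both directions. At the 4 falls it ran from -4.63 to -1.15. For the G2/M list the median difference was -0.81 in RPMI and -0.39 in EGM-MV. By limma the interaction passed at 23 of the 78 G2/M genes. The difference was lower in RPMI at 22 of them (background 1.48%) and higher at 1. Among all 12931 genes with a mean of at least 6 in either RPMI group, it was called lower at 284 and higher at 313. Median levels of the list in EGM-MV were 8.21 and 8.19 in podocytes, against 8.65 and 8.51 in PECs, so podocytes in RPMI held the lowest G2/M levels of the 4 groups. Of 62 S genes 6 passed with a lower difference in RPMI (background 1.48%) and 0 with a higher one. Of 93 G1 genes 0 passed by limma, with 21 at an unadjusted limma p below 0.05, which 16% of all genes had. A mean of at least 6 in either RPMI group was found at 89 of these 93. Of all 12931 genes at that level, 3060 had such a p, so the G1 list held no excess over genes of like level. The adjusted t-test of the methods called 1 gene of all 22237 for the interaction and 0 in each of the 3 lists.

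**Figure D5:**
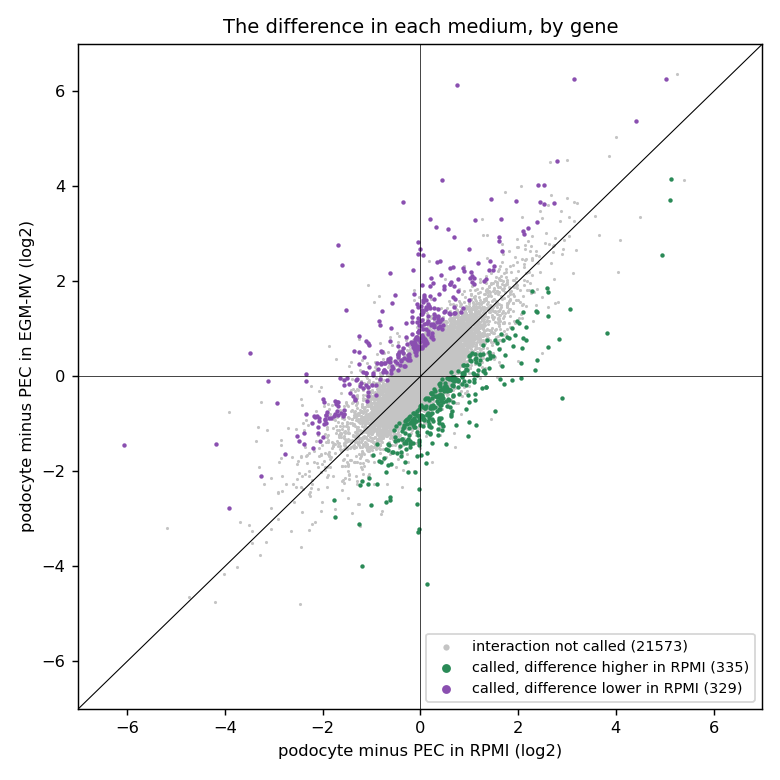
Each point is a gene, with its podocyte minus PEC difference in RPMI (log2) on the x axis and in EGM-MV (log2) on the y axis, and the diagonal marks equal differences. Green points are the 335 genes whose difference was higher in RPMI by the interaction test and purple points the 329 whose difference was lower, while grey points did not pass. The gene with the largest fall in RPMI, -6.06, lies at -1.44 in EGM-MV.

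The number of calls depended on the fit. After Benjamini-Hochberg adjustment, the t-test of the methods called 4070 genes between podocytes and PECs in RPMI, and without replicate 1 of podocyte RPMI limma called 4187. A further 61 genes were at least 2-fold apart without a call, and the PEC cultures differed by at least 2-fold at 50 of them, the podocyte cultures at 0. The interaction count was less stable, with 1234 genes when the culture was a random block, 1 gene by the adjusted t-test of the methods, 224 or 256 without replicate 1 or 2 of podocyte RPMI and 149 or 165 without replicate 1 or 2 of podocyte EGM-MV.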

How the data were processed

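RNA of 2 independent podocyte cultures and 2 independent PEC cultures, in each medium, was hybridised to Affymetrix Mouse Gene ST arrays. The culture names of the deposited table recur in both media, so the RPMI and EGM-MV arrays share cultures. The authors deposited log2 intensities with 1 value per Ensembl gene, made in JMP Genomics with a custom chip definition, RMA background correction (version not given in the sources used here), quantile normalization and an iterative outlier filter. Quantile normalization makes changes relative to the other genes, and the total RNA of a cell is not measured. The small number of arrays limits the precision.

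Group means of all 8 arrays were fitted with limma 3.58.1 in R 4.3.3 (4 residual degrees of freedom), p-values were adjusted by Benjamini-Hochberg over 22237 genes, and genes below 0.05 were called. This main fit treated the arrays as independent, although the RPMI and EGM-MV arrays share cultures. With culture as a random block, an alternative, 6354 genes were called between the cell types in RPMI. The fit was tested on simulated data. No filter on low values was applied in the main fit. The second deposited table held the same log2 values by labelled replicate for 22215 genes and served for fits that need the replicate number.

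The members and lists were chosen with earlier results of these data known. Named genes were the 2 largest rises and the 2 largest falls among called genes with a level of at least 6 in the higher group and no overlap of arrays. Lists of gene symbols could not be applied because 0 IDs were matched to a symbol. In their place, a gene entered the G1, S or G2/M list (97, 64 and 81 IDs, scran 1.30.0) when it stood in at least 10 marker pairs, came first in at least 90% of those of its phase, and in at most 50% of those of any other phase with at least 10 pairs. Alternatives covered scaling, dim genes, the test, culture and replicate blocks, and each array left out.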

Additional observations from a re-analysis of the deposited data

Results flagged for a closer look

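The difference between podocytes and PECs was not the same in RPMI and in EGM-MV at 664 genes, by the limma interaction test at an adjusted p below 0.05. ENSMUSG00000075602, which had the largest fall in podocytes in RPMI, was among them, with an interaction of -4.63 (RPMI minus EGM-MV, log2). Its cell type difference was -6.06 in RPMI and -1.44 in EGM-MV. Groups of 2 arrays are too small to test single arrays as outliers.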

How the results depend on the processing

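Only 2 cultures stand behind each group. The limma p-values rest on a spread pooled over all 4 groups, those in EGM-MV included, and moderated over genes. They do not measure the spread of the RPMI cultures alone. A limma fit of the 4 RPMI arrays alone called 5184 genes, 2983 higher and 2201 lower in podocytes. All 4 named genes kept their direction under the 18 alternatives and their call in 71 of 72 cases. The exception was ENSMUSG00000078597 by the methods' t-test at the individual p threshold stated in the methods (unadjusted p = 0.00259). The 6312 calls between podocytes and PECs in RPMI became 4070 by the methods' t-test after Benjamini-Hochberg adjustment and 1815 at that threshold, at which 822 genes were at least 2-fold apart against 1348. With 1 array left out, its group holds a single array that is assumed to vary like the other groups. This gave 4187 to 6502 calls, and 1253 to 1507 genes at least 2-fold apart. The 664 interaction genes became 1 by the adjusted t-test of the methods, 256 at the threshold of the methods, 1234 with culture as a random block (consensus correlation 0.22), and 149 to 651 with 1 array left out. The cause was not tested. The interaction cannot be fitted on the RPMI arrays alone. The G2/M list had 48 to 54 members called lower with 1 array left out and 35 by the methods' t-test at its threshold.

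Replicate numbers did not pair podocytes with PECs: their replicate differences in RPMI correlated across genes at 0.081. With the replicate block 6695 genes were called between cell types and 821 by the interaction. Alternatives planned for lists of gene symbols were not run, since no ID had a symbol. The cell cycle lists and the scalings of the non-overlap counts were chosen after seeing the data.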
